A study of Homo sapiens with 6 samples.

Results

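The immediate early genes FOS, FOSB, FOSL2, EGR1, EGR2, EGR4, NPAS4 and BTG2 were followed in SH-SY5Y cells, a line of human neuroblastoma cells, under METH (methamphetamine, a psychostimulant). The members were chosen by name, with earlier results of these data known, and all 8 are rows of the deposited table of 4101 genes. In the METH-treatment group 3 samples received 2 mM METH, and in the PBS-treatment group 3 samples received the same volume of PBS. Both groups were wild-type cells harvested after 24 h, although the time tag of the samples reads day 0. RNA was sequenced on the HiSeq platform, and the PBS libraries carry here the numbers of their columns (10, 11 and 12), which match no single PBS sample. SH-SY5Y is 1 established line, and nothing in the labels says that the libraries of a group came from separate cultures, so p-values measure the spread between these libraries, which may be technical. In bulk RNA, a change in the share of cells that express a gene and a change in RNA per cell cannot be told apart.

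Immediate early genes are transcribed within minutes of a stimulus such as calcium entry, cAMP or a growth factor, without prior protein synthesis. Serum response factor (SRF) and CREB, already bound near their promoters, are phosphorylated or joined by coactivators, and the new transcripts are usually short-lived. FOS, FOSB and FOSL2 encode basic leucine zipper proteins that pair with JUN proteins to form the transcription factor AP-1. EGR1, EGR2 and EGR4 encode zinc finger transcription factors of the early growth response family. NPAS4 encodes a transcription factor of neurons that responds chiefly to calcium and pairs with ARNT or ARNT2. BTG2 encodes an antiproliferative protein that recruits the CCR4-NOT deadenylase to mRNA, and it is also a target of p53. Psychostimulants are known to induce FOS and its relatives in the striatum.

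The short stretches of promoter below show the motif that all 8 genes share, the core TGACG of the cAMP response element (CRE), which CREB binds, and the CArG boxes of EGR1 and EGR2, which SRF binds. They are RefSeq promoter sequences of GRCh38.p14, printed 5′ to 3′ on the strand of the gene. Capitals mark TGACG, or CGTCA where the core lies on the other strand, and in EGR1 and EGR2 also the CArG boxes. For each gene the CRE core nearest upstream of a RefSeq start is shown, and for NPAS4 a pair of CRE cores. The gene spans given further below are those of GENCODE, whose starts can differ. The CRE cores shown for FOSL2, EGR2 and EGR4 lie within those spans.
FOS, chr14:75278752-75278781, plus strand: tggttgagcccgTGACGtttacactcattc
FOSB, chr19:45467924-45467953, plus strand: gcaaggggcgggTGACGtaagcaggggggc
FOSL2, chr2:28392780-28392809, plus strand: ggagtctggggtTGACGtgagtgaatccac
EGR1, chr5:138465369-138465422, plus strand: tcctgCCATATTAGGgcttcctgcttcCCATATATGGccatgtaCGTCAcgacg
EGR2, chr10:62816412-62816441, minus strand: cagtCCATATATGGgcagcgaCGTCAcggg
EGR4, chr2:73293640-73293669, minus strand: tttgggcatttaCGTCAcggcggcagggcc
NPAS4, chr11:66420857-66420886, plus strand: cattctaCGTCAtgagaTGACGtcggaagc
BTG2, chr1:203305297-203305326, plus strand: ggttcctagcacTGACGacagcgagcgatg

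All 8 genes were up-regulated in the METH-treatment group, with log2 fold changes from 0.97 for EGR1 to 3.95 for NPAS4 and a median of 1.84. Values are CPM, reads scaled to a common library total without correction for gene length. Fold changes are differences of log2(CPM + 0.1), tested by limma with Benjamini-Hochberg adjustment over the 4101 genes, and genes were called at an adjusted p-value under 0.1. By this measure 33.3% of the genes of the table were up-regulated, and their count was 1366. The table was restricted to genes called significant on the same 6 libraries before deposit, so each of the 8 had to differ to be in it, and adjustment within the table is lenient. With the adjustment widened to 20000 genes, those outside the table taken as unchanged, 4 of the 8 passed (FOS, FOSL2, NPAS4 and BTG2), against 5.34% of the genes of the table. In 6 of the 8 every METH library lay above every PBS library, as in 31.0% of the genes of the table, and the exceptions were EGR1 and EGR4. An exact 2-sided permutation test of 3 libraries against 3 cannot give a p-value below 0.1. It gave 0.1 for those 6 genes and 0.2 for EGR1 and EGR4.

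**Figure D1:**
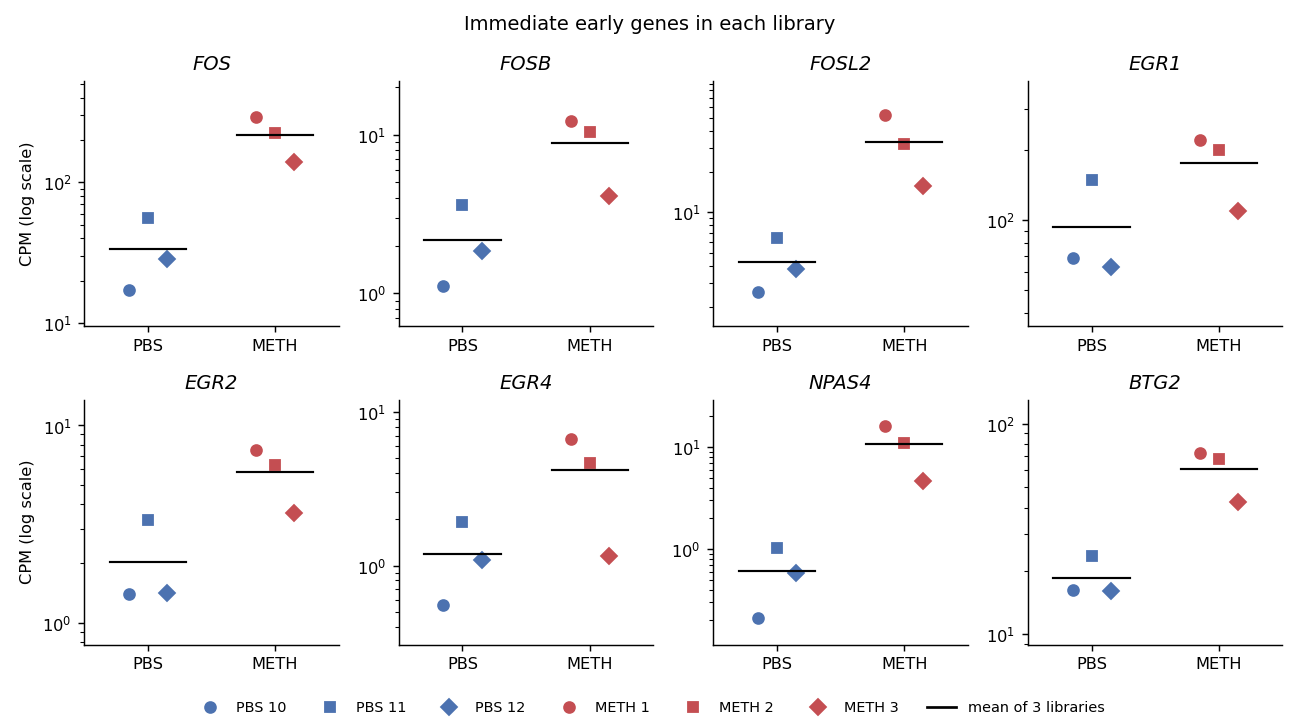
CPM on a log scale (vertical axis) of the 8 genes in the 3 PBS libraries (blue) and the 3 METH libraries (red), 1 point per library, with the mean of each group as a line. PBS 11 was the highest PBS library and METH 3 the lowest METH library in all 8 panels, and the groups overlap in EGR1 and EGR4.

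The depth of the libraries was 85.67 to 110.77 M reads, recovered from the step between values. The genes of the table took 229751 to 242341 CPM in the PBS libraries, 242872 and 243343 CPM in METH 1 and METH 2, and 192856 CPM in METH 3. Markers of noradrenergic neuroblastoma cells ranged from SLC18A2 at 0.417 ± 0.129 CPM to GATA2 at 441 ± 57.1 CPM in the PBS-treatment group (SD, n = 3). GATA2 was at 270 ± 8.38 CPM with METH (log2 fold change -0.70, adjusted p = 0.0371 by limma). SLC18A2 was at 1.38 ± 0.24 CPM with METH (log2 fold change 1.54, adjusted p = 0.0161 by limma). Of 24 such markers 12 were in the table, where 3 were higher and 7 lower with METH. Of 14 mesenchymal markers 3 were in the table, VIM, SNAI2 and TWIST1. VIM and SNAI2 were higher, and TWIST1 did not pass the threshold (log2 fold change 0.40, adjusted p = 0.182 by limma). The summed level of the 3 genes was 455 to 743 CPM with PBS and 794 to 1146 CPM with METH. Of 8 glial markers only ERBB3 was in the table, at a mean level of 0.342 ± 0.103 CPM in the PBS and 0.653 ± 0.125 CPM in the METH libraries (SD, n = 3 each). The part of these shifts in the results below was not tested.

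FOS (ENSG00000170345, chromosome 14, 75278774 to 75282230, GRCh38), which encodes c-Fos, was at 17.1 CPM in PBS 10, 55.9 in PBS 11 and 28.5 in PBS 12. It was at 293 CPM in METH 1, 224 in METH 2 and 139 in METH 3. The lowest METH library was 2.49-fold above the highest PBS library, so the groups stood well apart. The mean rose from 33.8 to 219 CPM, a ratio of means of 6.47, and the difference of mean log2(CPM + 0.1) was 2.79 (standard error, SE, of 0.423, adjusted p = 0.00628 by limma). The reads behind these levels numbered 1892 to 4853 with PBS and 14893 to 25096 with METH. FOS kept its call without any single library, with log2 fold changes from 2.39 to 3.24.

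FOSB (ENSG00000125740, chromosome 19, 45467995 to 45475179), whose truncated product ΔFosB is known for accumulating under repeated drug exposure, had a far lower level per kilobase than FOS. Its level was 1.12, 3.58 and 1.84 CPM in PBS 10, PBS 11 and PBS 12, and 12.1, 10.4 and 4.09 CPM in METH 1, METH 2 and METH 3. METH 3 lay only 1.14-fold above PBS 11, so the gap between the groups was narrow. FOSB had a log2 change of 1.98 (SE 0.495, adjusted p = 0.0231 by limma), and the adjusted p over 20000 genes was 0.113. Gene-level values cannot separate the full-length and truncated forms of FOSB. ERCC1 spans FOSB on the other strand but shares no annotated exonic base with it.

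FOSL2 (ENSG00000075426, chromosome 2, 28392448 to 28417312) encodes Fra-2, a Fos protein without the strong transactivation domain of c-Fos. It stood at 2.58, 6.48 and 3.78 CPM in the PBS libraries 10, 11 and 12, and at 52.2, 32.1 and 15.7 CPM in METH 1, METH 2 and METH 3. The groups were separated by 2.43-fold at their nearest libraries, and METH 1 was 3.32-fold above METH 3. Its log2 fold change of 2.87 (SE 0.455, adjusted p = 0.00766 by limma) was number 23 among the increases of the table, and that of FOS number 28. FOSL2 contains a sense intronic gene and faces an antisense gene, neither of which is in the table or shares exonic bases with it.

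EGR1 (ENSG00000120738, chromosome 5, 138465490 to 138469315), also known as Zif268, had the highest level per kilobase of the 8 genes with PBS and changed least. Its level was 68.5 CPM in PBS 10, 149 in PBS 11 and 63.1 in PBS 12, against 220 in METH 1, 200 in METH 2 and 109 in METH 3. METH 3 lay below PBS 11, so the groups overlapped, and the other METH libraries lay above all PBS libraries. The log2 fold change was 0.97 (95% confidence interval 0.11 to 1.82, adjusted p = 0.0652 by limma), and over 20000 genes the adjusted p was 0.318. The call was lost without PBS 10 (adjusted p = 0.122), PBS 12 (0.181), METH 1 (0.175) or METH 2 (0.166). It was held without PBS 11 (0.0197) or METH 3 (0.0410), the libraries that overlapped.

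EGR2 (ENSG00000122877, chromosome 10, 62811996 to 62919900), known as Krox20 and required for myelination by Schwann cells, was at 1.40, 3.32 and 1.42 CPM in PBS 10, PBS 11 and PBS 12. In METH 1, METH 2 and METH 3 it was at 7.52, 6.31 and 3.60 CPM. The groups did not overlap, but METH 3 and PBS 11 were only 1.09-fold apart. EGR2 thus had a log2 change of 1.51 (SE 0.406, adjusted p = 0.0273 by limma), on 132 to 644 reads per library. Over 20000 genes the adjusted p was 0.133.

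EGR4 (ENSG00000135625, chromosome 2, 73290929 to 73293705) had the widest spread of the family. It was at 0.551, 1.92 and 1.10 CPM in PBS 10, PBS 11 and PBS 12, and at 6.71, 4.63 and 1.16 CPM in METH 1, METH 2 and METH 3. METH 3 was within the range of the PBS libraries, on 124 reads, while METH 1 was 5.79-fold above it. The log2 fold change was 1.56 (95% confidence interval 0.14 to 2.99, adjusted p = 0.0696 by limma), and over 20000 genes the adjusted p was 0.340. The call was lost without PBS 10 (adjusted p = 0.153), PBS 12 (0.147), METH 1 (0.195) or METH 2 (0.169). Without METH 3 the log2 fold change of EGR4 was 2.29 (adjusted p = 0.0209).

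NPAS4 (ENSG00000174576, chromosome 11, 66421004 to 66426707) had the lowest level per kilobase of the 8 genes with PBS and the largest change, number 7 among the increases of the table. It was at 0.208 CPM in PBS 10, 1.03 in PBS 11 and 0.580 in PBS 12, on 23 to 89 reads. With METH it reached 16.3 CPM in METH 1, 11.1 in METH 2 and 4.62 in METH 3, on 494 to 1393 reads. Even the nearest libraries were 4.50-fold apart. On the log2 scale NPAS4 changed by 3.95 (SE 0.558, adjusted p = 0.00473 by limma), which is 15.4-fold on this scale. Because the PBS levels are low, the size of this change moves with the pseudocount, and it was 2.75 with 1 added and 4.20 with 0.01 added.

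BTG2 (ENSG00000159388, chromosome 1, 203305491 to 203309602) varied least between the libraries of a group. Its level was 16.2, 23.4 and 16.1 CPM in PBS 10, PBS 11 and PBS 12, and 72.4, 67.8 and 42.3 CPM in METH 1, METH 2 and METH 3. All METH libraries stood at least 1.81-fold above all PBS libraries. The log2 change of BTG2 was 1.69 (SE 0.265, the smallest of the 8, adjusted p = 0.00710 by limma). Its relatives in the table, TOB1 (1.22), TOB2 (0.61) and BTG3 (0.55), were also up-regulated by log2 fold change. They were 3 of 3 in the table among 16 genes of the BTG and TOB family and the CCR4-NOT complex. Up-regulation was called in 33.3% of all genes. With the adjustment over 20000 genes TOB1 alone of the 3 passed (adjusted p = 0.0445 by limma). The adjusted p-values were then 0.289 for TOB2 and 0.272 for BTG3 (limma). Of 22 p53 target genes 11 were in the table, of which 5 were higher, 1 was lower and 5 did not pass the threshold, with a median log2 fold change of 0.60. The 5 of 11 that were higher compare with 33.3% of all genes of the table. With the adjustment over 20000 genes no gene of the list passed. The lowest adjusted p by limma was then 0.115 for the gene that fell and 0.165 among the genes that were higher. CDKN1A, the p53-induced inhibitor of cell cycle kinases, rose from 288 ± 133 to 556 ± 43.3 CPM (SD, n = 3 each; log2 fold change 1.06, adjusted p = 0.0411 by limma). BBC3 (1.05) and PLK3 (1.07) had log2 fold changes of like size and passed the threshold, with overlapping groups. TP53I3, named after its value was seen as the 1 gene that fell, had a log2 fold change of -0.93.

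Per kilobase of exon, which allows levels of different genes to be compared, the order of the members changed with METH. In the PBS-treatment group EGR1 was first at 29.8 ± 15.2 CPM per kb (SD, n = 3), followed by FOS at 10.4 ± 6.16 and BTG2 at 6.73 ± 1.52. The ranges of FOS and BTG2 overlapped, and EGR1 was above FOS in all 3 libraries. FOSL2, EGR2, EGR4 and FOSB lay at 0.598 to 0.392 CPM per kb with overlapping ranges between neighbours, and NPAS4 was last at 0.176 ± 0.119. In the METH-treatment group FOS was first at 67.6 ± 23.8 CPM per kb and EGR1 second at 56.2 ± 18.8. Their ranges overlapped, but FOS was above EGR1 in each of the 3 libraries. BTG2 followed at 22.1 ± 5.89 and FOSL2 at 4.66 ± 2.55, each separated from its upper neighbour. NPAS4 came next at 3.11 ± 1.70, above EGR4 in all 3 libraries, and EGR4, FOSB and EGR2 at 1.75 to 1.57 CPM per kb did not differ beyond their spread.

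Ratios between relatives within a library do not depend on its total and show whether family members changed by different amounts. The log2 ratio of FOSB to FOS was -3.82, -3.93 and -3.88 in PBS 10, PBS 11 and PBS 12, and -4.58, -4.42 and -5.06 in METH 1, METH 2 and METH 3. All METH values were lower, by 0.81 on average, so FOSB rose less than FOS in these libraries. The log2 ratio of EGR2 to EGR1 was -5.45 ± 0.0678 with PBS and -4.90 ± 0.0578 with METH (SD, n = 3 each). This was a difference of 0.55 with no overlap, and EGR2 rose more than EGR1, but with a pseudocount of 1 the difference was 0.21. The spread of this ratio within a group was small although EGR1 itself ranged from 63.1 to 149 CPM in the PBS libraries. The log2 ratio of FOSL2 to FOS, at -2.88 ± 0.204 with PBS and -2.81 ± 0.325 with METH, overlapped between the groups. That of EGR4 to EGR1, at -6.21 ± 0.497 and -5.62 ± 0.737, overlapped as well. Over the 4 ratios the exact 2-sided permutation test gave p = 0.1 for FOSB to FOS and EGR2 to EGR1, the smallest it allows. For EGR4 to EGR1 it gave p = 0.3 and for FOSL2 to FOS p = 0.8 (exact permutation test), and with Benjamini-Hochberg adjustment over the 4 the values were 0.2, 0.2, 0.4 and 0.8.

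**Figure D2:**
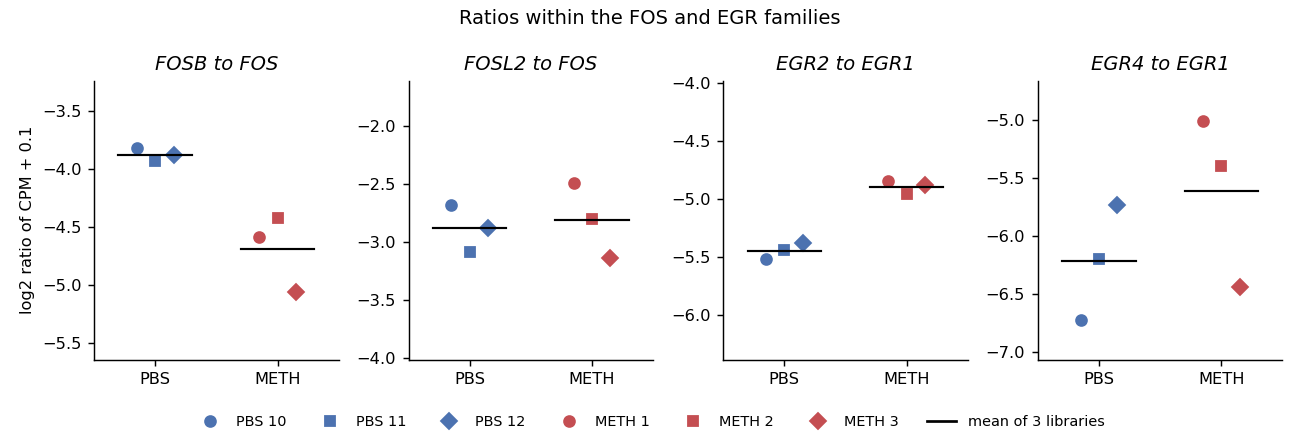
Log2 ratio of CPM + 0.1 between family members (vertical axis, the same span in each panel) in the 3 PBS libraries (blue) and the 3 METH libraries (red), with group means as lines. FOSB to FOS was lower and EGR2 to EGR1 higher in all METH libraries, while FOSL2 to FOS and EGR4 to EGR1 overlapped between the groups.

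The 8 genes shared part of their order of libraries. PBS 11 was the highest PBS library and METH 1 lay above METH 2, and METH 2 above METH 3, in 8 of 8 genes. The lowest PBS library was PBS 10 in 6 of them and PBS 12 in EGR1 and BTG2. Over all genes of the table this arrangement was found in 21.0%, and among the genes up-regulated by limma in 30.5%. The summed level of the 8 genes was 108, 244 and 116 CPM in PBS 10, PBS 11 and PBS 12, and 680, 556 and 320 CPM in METH 1, METH 2 and METH 3. PBS 11 stood 1.44-fold (BTG2) to 4.93-fold (NPAS4) above PBS 10, and METH 1 stood 1.71-fold (BTG2) to 5.79-fold (EGR4) above METH 3. By depth PBS 11 had 86.83 M reads and METH 3 had 106.99 M, and METH 3 also had the lowest sum over the table, as given above. The part of depth or of that sum in this order was not tested. With METH 3 left out the log2 fold changes of the 8 genes were 1.28 to 4.45 and with PBS 11 left out 1.36 to 4.38, and all 8 passed the threshold in both fits.

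The genes most like the members in pattern were GAD1, ZNF34, ARMCX6, JUN, VTI1B and TM7SF3. Likeness was measured over the 6 libraries as the root mean square distance between a gene's standardised log2(CPM + 0.1) values and the mean of the 8 members' values. Among 3755 genes with at least 1 CPM in a group the median distance was 1.06. It was 0.0561 for GAD1, which encodes the enzyme that makes GABA, and 0.0757 for JUN, while the members themselves ranged from 0.0868 to 0.317. GAD1 was at 3.82, 10.6 and 5.64 CPM in PBS 10, PBS 11 and PBS 12 and at 37.6, 31.8 and 13.2 CPM in METH 1, METH 2 and METH 3. Its log2 fold change was 2.02 (adjusted p = 0.0183 by limma). VTI1B and TM7SF3, a SNARE protein and a membrane protein, had the same order of METH libraries with far smaller log2 fold changes of 0.54 and 0.50, since the measure ignores the size of the change.

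**Figure D3:**
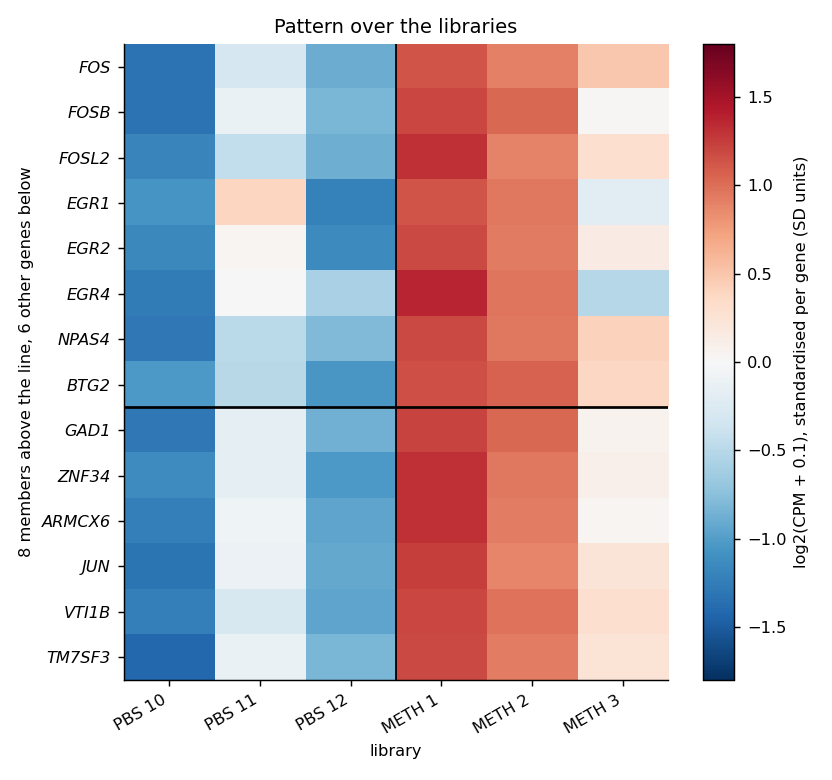
Log2(CPM + 0.1) of each gene, standardised over the 6 libraries (colour, in SD units), for the 8 members (rows above the line) and the 6 genes most like them (below). METH 1 is the highest column and METH 3 the lowest of the METH columns in every row, and PBS 11 is the highest PBS column.

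Of 14 genes listed as AP-1 partners or relatives of the Fos proteins 7 were in the table, of which 6 were up-regulated. The other 1, MAFK (log2 fold change 0.42, adjusted p = 0.173 by limma), did not pass. JUN, the main partner of FOS, was at 32.2, 102 and 47.0 CPM in PBS 10, PBS 11 and PBS 12 and at 367, 260 and 140 CPM in METH 1, METH 2 and METH 3. JUN thus had a log2 change of 2.14 (SE 0.455, adjusted p = 0.0154 by limma). JUND had a mean of 225 ± 131 CPM in the PBS and 713 ± 289 CPM in the METH libraries (SD, n = 3 each; log2 fold change 1.75, adjusted p = 0.0289 by limma). ATF3, a stress-induced relative, had a log2 fold change of 1.69 and the Fos relative FOSL1 one of 0.78. ATF7 (0.47) and MAFF (1.00) passed the threshold with overlapping groups. With the adjustment over 20000 genes 1 of the 7 passed, JUN (adjusted p = 0.0751 by limma). JUNB, the other JUN gene of the list, was not analysed here.

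Of 7 genes listed as partners or relatives of NPAS4 and the EGR proteins 3 were in the table, 1 of them higher and 2 lower. ARNT, the general partner of NPAS4, rose from 22.3 ± 2.97 to 33.1 ± 1.38 CPM (SD, n = 3 each; log2 fold change 0.58, adjusted p = 0.0446 by limma). ARNT2, the partner typical of neurons, fell by 0.46 on the log2 scale (adjusted p = 0.0743 by limma), from 17.5 ± 1.09 to 12.6 ± 0.946 CPM. ARNTL2, a clock protein of the same family, fell by 0.66 (adjusted p = 0.0902 by limma). EGR3 and the EGR corepressors NAB1 and NAB2 were not analysed here. With the adjustment over 20000 genes the adjusted p-values were 0.218 for ARNT, 0.362 for ARNT2 and 0.440 for ARNTL2 (limma).

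Upstream of the members, 3 of 26 genes of the SRF, CREB, MEF2 and ERK routes were in the table. MEF2D, a calcium-regulated transcription factor, rose by 1.16 on the log2 scale (adjusted p = 0.0268 by limma), and CRTC2, a coactivator of CREB, by 0.79 (adjusted p = 0.0434 by limma). MEF2C did not pass the threshold (0.13, adjusted p = 0.762 by limma). Feedback inhibitors of MAP kinases were represented by 7 of 16 genes, 6 of them higher and 1 lower. The phosphatases DUSP1 and DUSP4, themselves early response genes, rose from 21.8 ± 11.6 to 114 ± 49.3 CPM and from 63.6 ± 29.9 to 274 ± 37.0 CPM (SD, n = 3 each). Their log2 fold changes were 2.41 (adjusted p = 0.0108 by limma) and 2.20 (adjusted p = 0.00476 by limma), and DUSP16 had one of 1.25. The gene that fell was SPRY1 (-1.09), named after its value was seen.

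Among 43 other immediate early genes 29 were in the table, of which 20 were higher, 4 were lower and 5 did not pass, with a median log2 fold change of 1.07 against 0.11 over all genes of the table. The largest changes were those of the NR4A nuclear receptors, with log2 fold changes of 3.86 for NR4A1 and 4.47 for NR4A3. NR4A1 was at 18.2 to 50.4 CPM in the PBS libraries and 264 to 644 CPM in the METH libraries. NR4A2 rose as well, but from only 0 to 5 reads with PBS, so that no fold is given, to 2.22 ± 0.648 CPM with METH (SD, n = 3). The 4 genes that fell, named after their values were seen, were MYC (-1.69), GADD45G (-1.29), SGK1 (-1.14) and KLF10 (-0.83). Of 28 genes of the slower, delayed response to activity 13 were in the table, 10 of them higher, 2 lower (INHBA and PLAT, -0.90 and -0.67) and 1 not past the threshold. GEM, a small GTPase that limits calcium channels, had a log2 fold change of 2.99 and RGS2, a regulator of G protein signalling, one of 2.08. VGF, a secreted neuropeptide precursor, had one of 1.41 with overlapping groups. BDNF, the neurotrophin known as a target of NPAS4, was the gene that did not pass, at 0.322 to 0.460 CPM with PBS and 0.583 to 0.630 CPM with METH (log2 fold change 0.60, adjusted p = 0.115 by limma). Its groups did not overlap. Over these pathway lists together, without the members, 52 genes were higher and 10 lower, PLK3 being on 2 lists, and with the adjustment over 20000 genes 14 and 1. Among all 4101 genes 1366 were higher (33.3%) and 1467 lower. With the adjustment over 20000 genes these were 219 (5.34%) and 191. The members and lists were chosen with earlier results of these data known, and whether their counts exceed those of all genes was not tested.

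**Figure D4:**
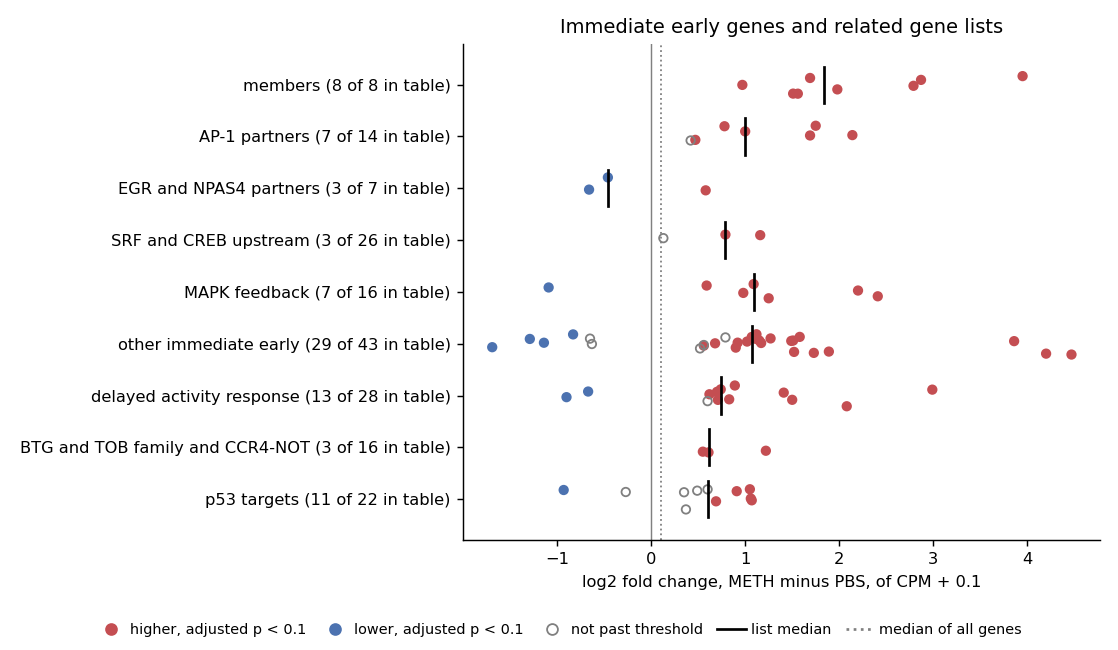
Log2 fold change (horizontal axis, METH minus PBS, of CPM + 0.1) of the 8 members and of the genes of each pathway list that are in the table, 1 point per gene, filled where the limma adjusted p-value is under 0.1. Black bars are list medians, 1.84 for the members and -0.46 to 1.09 for the lists, and the dotted line is the median of all genes, 0.11.

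The promoter windows of RefSeq, from 250 bases before to 50 bases after a start, were searched on both strands for 6 motifs. All 8 symbols matched, with 11 windows, because EGR2 has 3 annotated starts and NPAS4 2. The CRE core TGACG was in at least 1 window of 8 of 8 genes, against 28.4% of 27305 gene symbols in the same table. Its nearest copy began at -64 in FOS, -60 in FOSB and -66 in FOSL2 and EGR1, counted from the start, and at -210 in BTG2. In NPAS4 a pair of CRE cores began at -140 and -130 of the first start. The full CRE TGACGTCA, which contains the CRE core, was in no window of the 8 genes, against 2.25% of symbols. The CArG box was in EGR1, with copies beginning at -105 and -83, and in the third start of EGR2 at -71, against 1.60% of symbols. Sequence farther than 250 bases before a start was not searched. A gene without a match, such as FOS for the CArG box, may therefore hold the motif farther upstream. The TATA box TATAAA was in FOS and FOSB, against 14.0% of symbols. The EGR site GCGNGGGCG was in EGR1, EGR2 and BTG2, against 11.2%, and the AP-1 site TGANTCA was in FOSL2, against 9.37%. The member windows had a GC content of 54.7% to 77.3% (median 69.3%), above the median of all windows, 58.7%, and its part in the matches was not tested. A match is a description of letters, and binding was not measured in these samples.

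**Figure D5:**
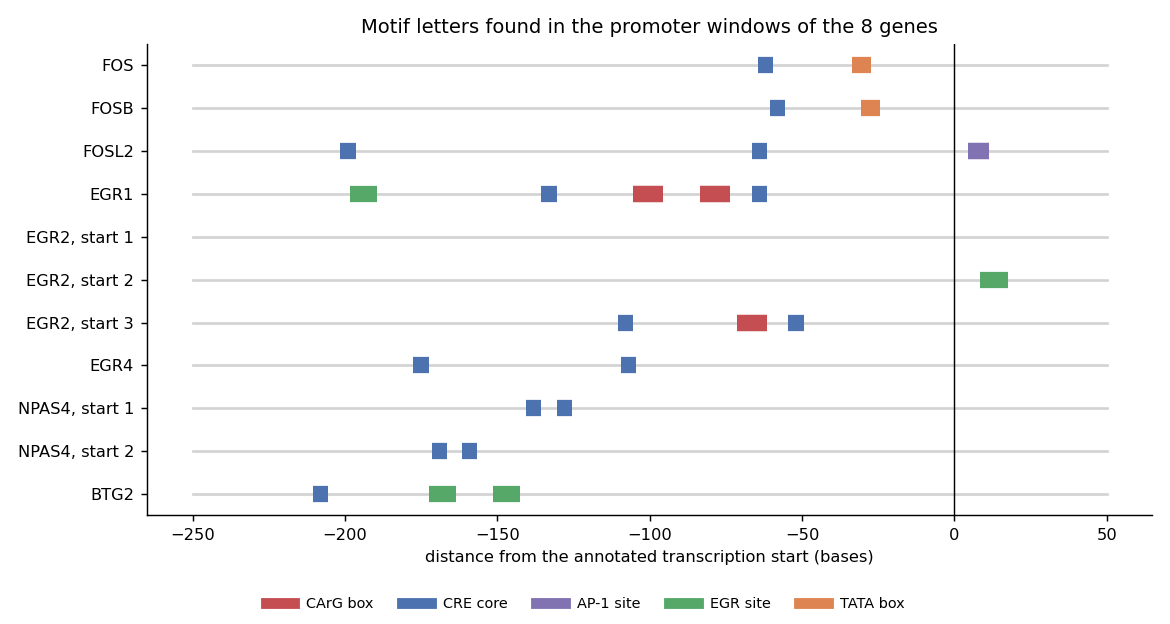
Motif matches along the 11 promoter windows of the 8 genes (horizontal axis, distance in bases from the annotated start; matches on either strand are drawn alike). Every gene has a CRE CRE core upstream of at least 1 start, and CArG boxes are seen in EGR1 and EGR2.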

How the data were processed

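RNA-seq libraries of SH-SY5Y cells were analysed, 3 treated with 2 mM METH and 3 with PBS for 24 h. The authors deposited 1 table of 4101 genes, all marked significant, with columns headed FPKM. Within a column 99.976% to 100% of the values were whole multiples of 1 step (tolerance 0.00055), so these deposited values were used as CPM, and the reads were recovered. The tests had been planned for either unit. The authors also deposited group means, a fold change (ratio), its log2 and the p-values of their DESeq2 comparison, none of which were used. The aligner, counting tool and genome build are not given in the sources used here. GENCODE release 29, in which 4093 of the genes were found, gave gene positions and exonic lengths.

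The test was that of limma with a mean-variance trend (3.58.1, under R 4.3.3), applied to log2(CPM + 0.1). P-values were adjusted by Benjamini-Hochberg over the table, with a threshold of 0.1. The wider adjustment assumed 20000 genes. Alternatives were a pseudocount of 1 or 0.01, a minimum of 1 CPM, limma without a trend, median ratio scaling, a threshold of 0.05, edgeR (4.0.16) and DESeq2 (1.42.0) on the recovered reads, and each library left out in turn. The fits were tested on simulated data with 200 of 4101 genes changed. Each tool recovered 200, with 12 (limma), 15 (edgeR) and 27 (DESeq2) false calls. The simulated data held no selection of significant genes and no shift shared by the genes of a library. The outcome therefore does not cover these features of the real table. The real libraries of a group varied widely, with FOS at 33.8 ± 20.0 CPM with PBS and EGR4 at 4.17 ± 2.81 CPM with METH (SD, n = 3 each). Whether the counts of recovered genes and false calls hold at such a spread was not tested. The named genes were the members, the AP-1, EGR and NPAS4 partners, up to 3 genes per list with the largest change past the threshold and at least 1 CPM in a group, and the 6 genes most like the members. The members and lists, from general knowledge, were chosen with earlier results of these data known.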

Additional observations from a re-analysis of the deposited data

How the results depend on the processing

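The log2 fold changes of the 8 genes were positive under all 15 alternatives, and 106 of the 120 combinations of gene and alternative were past the threshold. The other 14 were those of EGR1 and EGR4 at a threshold of 0.05, with the wider adjustment and without PBS 10, PBS 12, METH 1 or METH 2, and of FOSB and EGR2 with the wider adjustment. With edgeR and with DESeq2 all 8 passed. The count of members past the threshold was 4 over 20000 genes and 6 to 8 with a library left out. Over all genes 1366 were higher and 1467 lower; at a threshold of 0.05 these were 696 and 783, over 20000 genes 219 and 191, and with a library left out 412 to 1551 and 563 to 1368. They were lowest without METH 2 (412 and 563), followed by METH 1 (491 and 628) and PBS 12 (747 and 854). Of the pathway list genes 52 were higher and 10 lower; over 20000 genes 14 and 1 were, at 0.05 there were 5 lower, and with a library left out 25 to 54 and 4 to 9, with 25 higher without METH 1 and 26 without METH 2. The lower count was 4 without METH 2, 5 without PBS 12 and 6 without METH 1 or METH 3. The wider adjustment and the stricter threshold call fewer genes by construction, and for the libraries the cause was not tested.

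The difference in the log2 ratio of FOSL2 to FOS, 0.07, reversed to -0.14 with a pseudocount of 1 and ranged from -0.09 to 0.24 with a library left out; the cause was not tested. The other 3 ratios kept their direction, from -0.94 to -0.62 for FOSB to FOS, 0.51 to 0.58 for EGR2 to EGR1 and 0.30 to 1.01 for EGR4 to EGR1 with a library left out. Their size moved more with a pseudocount of 1, to -1.16 from -0.81, to 0.21 from 0.55 and to 0.14 from 0.60. Median ratio scaling shifted the median of all genes by -0.034. No paired analysis was possible because the PBS columns carry the numbers 10 to 12, which match no replicate number of the labels. The lowest member, NPAS4, rests on 23 to 89 reads per PBS library, which limits the precision of its fold change.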
